A study of Drosophila melanogaster with 2 samples.

Results

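Chromatin immunoprecipitation with sequencing of the Snail protein left 852 candidate regions outside the assembled chromosome arms of the fly, and they are described here. They were all rows of the authors' pooled ranked list whose sequence is not one of the 6 arms of chromosomes X, 2, 3 and 4, so they lie on Y or on scaffolds. They made up 0.799% of the 106694 candidates of that list. The chromatin came from whole Drosophila melanogaster embryos aged 0 to 24 h of a strain that carries a sna-eGFP fusion, and an antibody against GFP pulled down the tagged protein. There were 2 biological replicates of this 1 group, from the same donor strain, and possible control experiments named in the labels were not analysed here. The regions therefore come from a mix of all tissues of the embryo, and the sex of the embryos was not collected. Snail itself is given as the antibody's target in 1 label and GFP in another.

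Snail is a zinc finger repressor that is required for mesoderm formation, represses neuroectodermal genes in the mesoderm and binds the E-box CAGGTG. Y and the scaffolds are the opposite of such gene-rich sequence. Y of the fly is almost wholly heterochromatic and carries a small number of genes for male fertility, while the scaffolds are pieces of repeat-rich DNA that could not be joined to an arm. Heterochromatin of this kind holds satellite arrays, ribosomal RNA gene clusters with their R1 and R2 insertions, and the telomeric retrotransposons HeT-A and TART that maintain fly chromosome ends. A sequencing read from such DNA often matches many places equally well, and the sources used here do not say how such reads were placed.

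The members fell on 288 sequences, and 102 of these held 1 member each. Scaffolds whose name in the lists gives no chromosome (Un) held 459 members, scaffolds assigned to X held 253, scaffolds assigned to Y held 98 and the assembled Y held 42. Some Un scaffolds carry a location in their reference name all the same. Un_DS483562v1, with 32 members, is named there as XY mapped, and Un_CP007077v1, with 13, as 3Cen mapped. No candidate lay on the mitochondrial genome in any ranked list. Overlapping calls were common, and 640 of 852 members (75.1%) overlapped or touched another member, against 82987 of 105842 arm candidates (78.4%), so the members merged into 450 sites. For 830 members the scaffold name could be matched to the reference copy of the assembly, and the other 22, on 4 scaffolds of Y, enter no measure of their sequence but are counted in the densities per Mb.

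Sequences from members of high signal are shown first: dodeca and R1A1 because they recur in the list, the others because the results name their members. Coordinates are on dm6, the letters are those of the NCBI RefSeq copy of the same assembly, and each is a stretch within 150 bp of the summit of a high-signal member. The stretches of Un_CP007100v1 and Un_DS483746v1 do not include the summit itself. The scaffold Un_CP007100v1, whose member had the highest signal of all, carries an array of 5-base units, GCAAG and GCAAT. Capitals mark GCAAT, the less frequent of the pair in the stretch shown:
Un_CP007100v1:6124-6212, plus strand: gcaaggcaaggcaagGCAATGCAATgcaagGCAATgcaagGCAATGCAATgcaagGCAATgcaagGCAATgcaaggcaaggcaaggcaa
The member of Un_DS483746v1 lies in an array of the dodeca satellite, a pericentromeric repeat of chromosome 3 with units of 11 and 12 bases, and capitals mark exact copies of its 11-base unit:
Un_DS483746v1:3369-3475, plus strand: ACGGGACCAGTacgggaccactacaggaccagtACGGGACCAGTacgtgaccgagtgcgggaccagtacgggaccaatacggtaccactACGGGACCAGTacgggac
A member on an X scaffold lies in R1A1, a retrotransposon that inserts into 28S ribosomal RNA genes. The stretch shown, which is only part of the member, has no CANNTG to mark:
X_DS483655v1_random:11365-11446, plus strand: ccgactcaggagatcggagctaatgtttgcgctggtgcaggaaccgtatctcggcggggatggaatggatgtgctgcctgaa
A pair of members of the telomeric element TART-A share a run of 55 bases, marked by capitals, although they are on different scaffolds. The first stretch has 1 CANNTG and the second has 2, and the shared run itself holds CAGTTG:
Un_DS485071v1:109-345, plus strand: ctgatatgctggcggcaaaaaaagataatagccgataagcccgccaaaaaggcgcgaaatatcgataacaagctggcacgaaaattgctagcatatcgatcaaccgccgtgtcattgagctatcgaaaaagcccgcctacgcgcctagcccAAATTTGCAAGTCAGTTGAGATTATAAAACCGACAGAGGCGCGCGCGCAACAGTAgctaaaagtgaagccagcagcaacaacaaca
Y_DS484589v1_random:877-1176, minus strand: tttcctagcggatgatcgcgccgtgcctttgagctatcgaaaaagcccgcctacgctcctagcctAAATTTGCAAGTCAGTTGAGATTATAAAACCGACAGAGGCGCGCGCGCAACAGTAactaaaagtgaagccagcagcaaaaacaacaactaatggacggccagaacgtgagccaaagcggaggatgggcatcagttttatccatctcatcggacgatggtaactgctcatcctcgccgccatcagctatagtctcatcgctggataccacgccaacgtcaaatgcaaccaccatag
A member partly in the telomeric element HeT-A had no CANNTG in the stretch shown:
Y_DS485927v1_random:428-578, plus strand: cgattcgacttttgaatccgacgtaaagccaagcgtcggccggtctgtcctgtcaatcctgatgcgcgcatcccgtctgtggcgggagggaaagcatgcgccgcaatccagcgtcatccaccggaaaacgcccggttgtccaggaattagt
The only member window with 3 units of AACAC, a simple satellite, shows that repeat for most of its length:
Un_DS485995v1:109-280, plus strand: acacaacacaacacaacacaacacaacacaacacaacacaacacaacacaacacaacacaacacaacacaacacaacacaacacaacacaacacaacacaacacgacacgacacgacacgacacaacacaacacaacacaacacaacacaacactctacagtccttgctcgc

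Dodeca satellite was the commonest single repeat among the members of the pooled list. At least 3 exact copies of the 11- or 12-base dodeca unit were present in 230 of 830 members (27.7%, 95% Wilson interval 24.8 to 30.9). The same held for 650 of 16494 windows that tile all off-arm sequences at the members' median width of 516 bp (3.94%) and for 89 of 105842 arm candidates (0.0841%). All 230 lay on Un scaffolds, where they were 50.1% of the 459 members, and they were spread over 64 scaffolds. Windows with dodeca units were not counted by class of sequence. Up to 33 units were counted in 1 member. The unit was looked for because it was seen in a high-signal member, so its share is a description.

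Dodeca members had lower signals than members at large, and each replicate's own list held such regions. Their pooled signal, the authors' enrichment value per region, whose scale the sources used here do not state, had a median of 11.3 and ranged between 2.06 and 48.1, beside a median of 13.4 over all members. A candidate of replicate 1 overlapped 31 of the 230, one of replicate 2 overlapped 173, and both did so for 25. In the replicates' own lists, dodeca units were present in 23 of the 107 off-arm candidates of replicate 1 with sequence (21.5%) and in 170 of the 915 of replicate 2 (18.6%). The strongest dodeca member of Un_DS483746v1, at 3238-3753, had a pooled signal of 45.6, with 39.3 in replicate 1 and 17.6 in replicate 2. That scaffold, 9341 bp long, held 16 members, and every one of them had dodeca units. All 13 members of Un_CP007077v1 and all 11 of Un_DS483659v1 had them too, with strongest signals of 25.8 and 28.1.

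R1 and R2, elements that live inside 28S ribosomal RNA genes, led another large group. A member was assigned to the annotated transposable element family that covered most of it, if that was at least 50% at 80% identity or more. R1A1, R1 or R2 led in 183 of 830 members (22.0%, interval 19.4 to 25), in 547 of 16494 off-arm windows (3.32%) and in 90 of 105842 arm candidates (0.0850%). R1A1 alone led 161 members, R1 led 15 and R2 led 7. The order of this group and dodeca was not stable. Outside the pooled list, R1 and R2 led 28% of off-arm candidates with sequence in replicate 1, 19.2% in replicate 2 and 24.4% in the replicate-pair list. Dodeca units were in 21.5%, 18.6% and 23.7%. The counts were 30 against 23, 176 against 170 and 106 against 103. Intervals of the 2 groups overlapped in each list, the pooled one included, so their order is not settled. They were concentrated on X scaffolds, where 166 of 253 members (65.6%) belonged to this group, against 0 of 76 on Y scaffolds with sequence, 2 of 42 on Y and 15 of 459 on Un scaffolds. Windows led by R1 and R2 were not counted by class, so how much of the X scaffolds is such sequence is not given here. The ribosomal gene cluster of the fly lies in the heterochromatin of X and Y. Summits of the 176 R1A1 and R1 members were spread along the element: set on a copy of 5333 bp from chromosome X, 4 equal stretches of it held 69, 50, 28 and 29 of them, in the order of the annotated sequence on the chromosome's plus strand.

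The R1 and R2 members had a median signal of 15.0, with a range of 2.25 to 153. R1A1 and R1 members overlapped a candidate of replicate 1 in 39 of 176 cases (22.2%) and one of replicate 2 in 147 (83.5%). The 7 R2 members had 0 overlaps in replicate 1 and 3 in replicate 2. The 28S gene itself led 11 members, with a median signal of 10.6 and a highest of 24.3, of which 0 overlapped a candidate of replicate 1 and 7 one of replicate 2.

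The ribosomal DNA scaffold, Un_CP007120v1, held 8 members, and their place relative to the genes can be read. The strongest, at 53089-53604, had a pooled signal of 153, against 100 in replicate 2 and 56.1 in replicate 1. Its summit lay in no annotated gene, 1757 bp before the start of the pre-rRNA gene pre-rRNA:CR45846. Of this member 90.1% was R1A1 sequence at 98.9% identity. A pair of members upstream of it, at 51198-51713 and 51397-51912, were R1A1 sequence as well and had signals of 31.7 and 14.5. Members at 19730-20245, 20523-21038 and 19930-20445 lay in the 28S pseudogene 28SrRNA-Psi:CR40596, with signals of 24.3, 23.2 and 9.22. Replicate 2 had a further candidate of signal 91.5 at 73401-73836, in the intact gene 28SrRNA:CR45844, where neither replicate 1 nor the pooled list had one. Replicate 1 had 1 candidate on the scaffold and replicate 2 had 12.

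**Figure D1:**
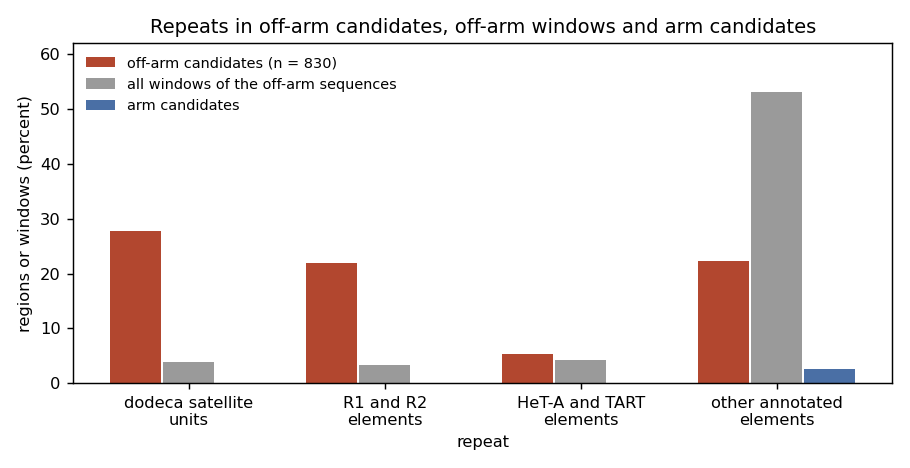
Share of regions or windows, in percent, that hold dodeca units or are led by R1 and R2, by HeT-A and TART, or by another annotated transposable element. Off-arm candidates (n = 830) stand left of all windows of the off-arm sequences and of arm candidates. Dodeca units reach 27.7% and R1 and R2 22.0% of off-arm candidates, against 3.94% and 3.32% of windows, while other elements are the lower of the pair.

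Telomeric retrotransposons led few members but many of the strongest. HeT-A and TART elements, which are copied onto chromosome ends by reverse transcription, led 44 of 830 members (5.30%, interval 3.97 to 7.04), against 4.17% of off-arm windows and 0.0255% of arm candidates. The elements differed in direction: TART-A led 3.13% of members and 1.18% of windows, and HeT-A led 2.17% of members and 2.92% of windows. Chromosome 4 candidates had a similar share, 14 of 318 (4.40%). Among the 25 members of highest signal with a sequence, however, 6 were telomeric and 7 were R1 or R2. HeT-A led 18 members with a median signal of 32, the highest of the families with 10 or more members, and TART-A led 26 with a median of 14.7. They lay mainly on Y scaffolds, where 26 of 76 members with sequence (34.2%) were telomeric, against 0 of 253 on X scaffolds. Telomeric windows were not counted by class either.

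HeT-A and TART-A members were found in replicate 1 more often than members at large. Of 18 HeT-A members, 8 overlapped a candidate of replicate 1 (44.4%) and 16 one of replicate 2 (88.9%), and of 26 TART-A members 11 (42.3%) and 20 (76.9%), beside 16.4% and 71.4% of all members with sequence. These shares rest on few regions, several of which overlap each other, and no test was made of them. The TART-A member at Un_DS485071v1:1-378, which touches the scaffold's end, had a pooled signal of 103 with 64.7 in replicate 1 and 39.8 in replicate 2, and it was the strongest off-arm candidate of replicate 1. The member Y_DS484589v1_random:769-1284 had 51.7 in the pooled list, 25.6 in replicate 1 and 27.8 in replicate 2. The 55 bases marked in the TART-A sequences were present in 4 of 26 TART-A members, on 3 scaffolds, with pooled signals of 27.8 to 103.

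Other mobile elements took up less of the list than of the sequence it came from. Transposable elements of any family led 412 of 830 members (49.6%) and 10011 of 16494 off-arm windows (60.7%). These counts include R1 and R2, with 183 members and 547 windows, and HeT-A and TART, with 44 members and 688 windows. All shares are of all members or windows, so the larger shares of dodeca, R1 and R2 left less room for other elements. No share of the remainder was taken. On chromosome 4 any family led 54 of 318 candidates (17%), and on the arms 2815 of 105842 (2.66%). The families differed: G2, a non-LTR element, led 3.49% of members and 0.818% of windows, but gypsy12 led 3.01% and 4.13%, GATE 1.33% and 3.67%, and the DNA transposon 1360 0.482% and 4.41%. Stellate and Suppressor of Stellate genes, repeated X and Y genes of male fertility, led 2 members (0.241%) and 1.19% of windows. Together, dodeca units or an annotated family described 655 of 830 members (78.9%), and no member had both.

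Members with sequence were repeated in the assembly as a rule, and arm candidates were not. For each summit, all 32-base words within 100 bp on each side were counted over the whole assembly, and a median of 2 copies or more was called repeated. That held for 684 of 830 members (82.4%, interval 79.7 to 84.8), 18 of 318 chromosome 4 candidates (5.66%) and 1859 of 105842 arm candidates (1.76%). The median member had 12 copies, and 439 members (52.9%) had 10 or more, up to 5816. Words found once throughout were the rule for 14 members (1.69%), for 81.4% of chromosome 4 candidates and for 94.7% of arm candidates. Copies were not counted for all off-arm windows, so how repeated the off-arm sequence is as a whole is not given here. The lists do not say which of the copies gave the reads of a repeated member.

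**Figure D2:**
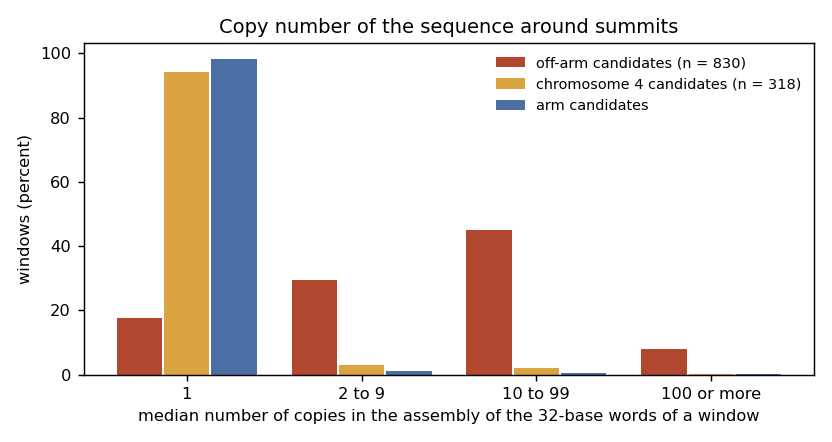
Median number of copies in the assembly of the 32-base words around each summit, as percent of windows, for off-arm candidates (n = 830), chromosome 4 candidates (n = 318) and arm candidates. Of off-arm candidates 17.6% are single copy and 45.1% have 10 to 99 copies, while single copy holds for 94.3% of chromosome 4 candidates and 98.2% of arm candidates. Windows of all off-arm sequence were not counted.

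The 146 members whose words were mostly in 1 copy can be placed more firmly, and they were not stronger. Their median signal was 12.8 with a highest of 44.2, beside 14.1 with a highest of 121 for the 245 members of 2 to 9 copies and 13.3 with a highest of 158 for the 439 of 10 or more. A candidate of replicate 1 overlapped 15.8%, 13.9% and 18% of these groups, and one of replicate 2 overlapped 60.3%, 74.3% and 73.6%.

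The windows of members stood apart in composition. Their median GC content was 52.7% (quartiles 42.3 and 59.7), against 38.8% (31.8 and 46.8) in all off-arm windows of the same width and 46.8% (40.8 and 52.7) in arm candidates. Soft-masked bases, marked as repeats in the reference, made up most of 67.1% of member windows, 55.9% of off-arm windows and 2.32% of arm candidate windows. Tandem repeats of a unit up to 140 bases, with 80% of bases equal one unit apart, filled 61 member windows (7.35%), 2.06% of off-arm windows, 0 of 318 on chromosome 4 and 0.0680% of arm windows. The commonest units were of 11 bases in 16 members and 12 bases in 6. The rule asks for 1 fixed unit length, and fewer windows met it than the 230 members with dodeca units. The 7.35% is therefore not the share of all tandem repeats.

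E-boxes were rarer around the members' summits than around those on the arms. CAGGTG was found in 24 of 830 windows (2.89%, interval 1.95 to 4.27), against 4.99% of all off-arm windows of the same width and 9.98% of arm candidates. Any E-box, CANNTG, which includes CAGGTG, was found in 38.8%, 47.7% and 67.5%. These orders were the same with 50 or 250 bp on each side of the summit. The dodeca stretch shown above has no CANNTG, and dodeca units were in 27.7% of members but 3.94% of off-arm windows. Motifs were not counted apart from dodeca members, so the part of dodeca in the lower shares was not tested. CGATA, the core of the DRE, was found in 15.4% of member windows, 21.4% of off-arm windows and 22.1% of arm windows. The DRE itself, TATCGATA, was found in 0.843%, 0.572% and 1.16%, and GAGAG, bound by GAGA factor, in 21.8%, 21.8% and 24.2%. Runs of 3 units of AATAT or AAGAG were in none of the 830 member windows, which allows a share of up to 0.461% each by the Wilson interval, and in 0.227% and 0.115% of off-arm windows. Runs of 3 units of AACAC were in 1 member window (0.120%), that of the member at the start of Un_DS485995v1, which had a pooled signal of 45.6, 42 in replicate 2 and no overlapping candidate in replicate 1. All motifs were searched on both strands.

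Few members lay near an annotated gene. Of the 830 with sequence, 759 (91.4%) were on a scaffold with no annotated gene, 52 lay between genes, 16 inside a gene and 3 within 500 bp of a gene's start. Arm candidates were inside a gene in 64.0% of cases and within 500 bp of a start in 15.8%. Off-arm windows were not placed relative to genes, so how much off-arm sequence lies near genes is not given here. The protein-coding gene klhl10, annotated on Un_CP007081v1, held 5 members, some of which overlapped each other, with signals of 7.30 to 19.3. That scaffold of 88768 bp held 19 members in all, the strongest of which, at 19227-19742, had a signal of 22.6. This member lay 15928 bp upstream of the start of Gpa2, which encodes the alpha subunit of a glycoprotein hormone. All 32-base words within 100 bp of the member's summit were single-copy. The 3 members near starts were at CR46178, a pseudogene on Y, with a signal of 16, and at the noncoding RNA gene lncRNA:CR40719, on Y_DS485938v1_random, with signals of 12.8 and 2.91.

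On the assembled Y, the members were sparse and weak. Its 42 members over 3.67 Mb came to 11.5 per Mb, with a median signal of 10.4 and a highest of 37.3. The strongest, at Y:989138-989653, was R1A1 sequence at 92.1% identity, lay 4882 bp downstream of the start of Su(Ste):CR42412, had a signal of 28.9 in replicate 2 and overlapped no candidate of replicate 1. No Y member overlapped a candidate of replicate 1, and 18 of 42 overlapped one of replicate 2. Replicate 1 had 1 candidate on Y and replicate 2 had 73.

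Of 12 Y genes looked up by name, 2 held a pooled summit. The gene kl-5, a dynein heavy chain of the sperm tail, held 5, the highest with a signal of 12.8, and Ppr-Y held 2, the highest with 12.7. Each of the 5 members in kl-5 overlapped another of them, so these counts are of calls and not of separate sites. The dynein heavy chain genes kl-2 and kl-3 held none in the pooled list. In replicate 2, kl-5 held 7, kl-3 held 5, kl-2 held 2 and Ppr-Y held 2, all of signal 11.2 or less, and in replicate 1 kl-2 held 1, of signal 11.5. ORY, PRY, CCY, WDY, ARY, Pp1-Y1, Pp1-Y2 and FDY held none in any of the 3 lists. The 12 genes cover 27.8% of Y, introns included, and held 7 of its 42 summits (16.7%).

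Density differed widely between the classes of sequence. The pooled list had 252 candidates per Mb on X scaffolds, 114 on Y scaffolds, 107 on Un scaffolds and 11.5 on Y, in all 86.7 per Mb over the 9.83 Mb of off-arm sequence, against 236 on chromosome 4, which is largely heterochromatic too, and 791 on the arms. The nearness of X scaffolds to chromosome 4 did not hold in each list: they had 42.8 per Mb in replicate 1, 305 in replicate 2 and 146 in the replicate-pair list, against 206, 219 and 215 on chromosome 4. Y was the sparsest class in all 4 lists, with 0.273 per Mb in replicate 1, 19.9 in replicate 2 and 3.27 in the replicate-pair list.

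**Figure D3:**
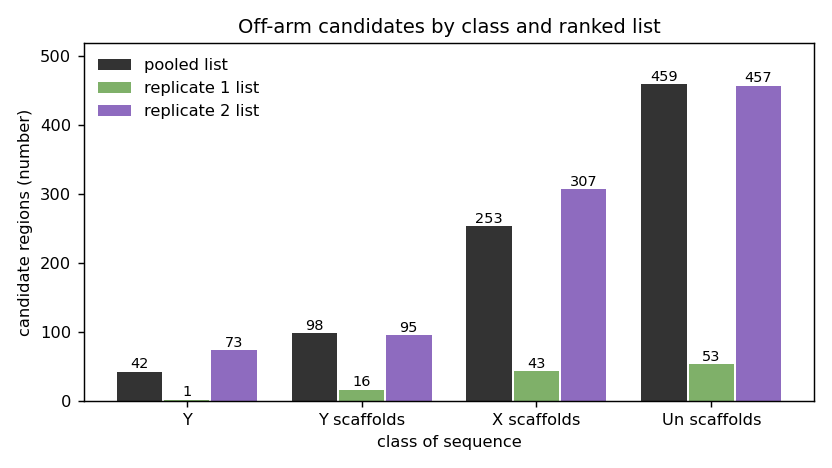
Number of off-arm candidates in the pooled, replicate 1 and replicate 2 ranked lists, by class of sequence. Un scaffolds hold 459 pooled candidates and Y 42, and replicate 1 has 53 and 1 there, against 457 and 73 in replicate 2.

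The replicates differed in how much off-arm sequence they listed. Replicate 1 had 113 off-arm candidates among 46960 (0.241%, interval 0.200 to 0.289), and replicate 2 had 932 among 103224 (0.903%). The lists have different lower ends, since the weakest candidate of replicate 1 had a signal of 8.96 and that of replicate 2 one of 2.00. With replicate 2 limited to signals of 8.96 or more, a choice made after seeing the lists, it had 503 off-arm candidates among 67536 (0.745%, interval 0.683 to 0.812). No read counts accompany the lists, and the part of sequencing depth in this difference was not tested.

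Members were accordingly matched more often by replicate 2. An overlap of 1 bp or more with a candidate of replicate 1 was found for 141 of 852 members (16.5%, interval 14.2 to 19.2), against 54.1% of arm candidates, and with one of replicate 2 for 609 (71.5%, interval 68.4 to 74.4), against 83.1%. Both replicates matched 111 members (13.0%), against 46.1% of arm candidates, and neither matched 213 (25%), against 8.94%. The 213 had a median pooled signal of 10.1 and the 111 one of 26.7. Within the 111, the replicates' signals had a Spearman correlation of 0.29, beside 0.51 over 48806 arm candidates, as a description over regions that share 2 libraries and often overlap. Seen from replicate 1, 79 of its 113 off-arm candidates (69.9%) overlapped one of replicate 2, against 77.6% of its arm candidates.

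The median signal of off-arm candidates was lower than that of arm candidates in each list. The pooled median was 13.4 (quartiles 7.72 and 20.5) for members and 19.6 (11.1 and 31.0) for arm candidates, a ratio of 0.683. It was 15.8 against 17.6 in replicate 1 and 9.49 against 12.1 in replicate 2, ratios of 0.901 and 0.786. Of the 852 members 243 (28.5%) exceeded the arm median, 17 (2.00%) the 90th percentile of the arms and 0 the 99th. Member signals ran between 2.03 and 158, and those of arm candidates up to 1152. By class the medians were 14.5 on X scaffolds, 14.0 on Y scaffolds, 13.2 on Un scaffolds and 10.4 on Y.

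**Figure D4:**
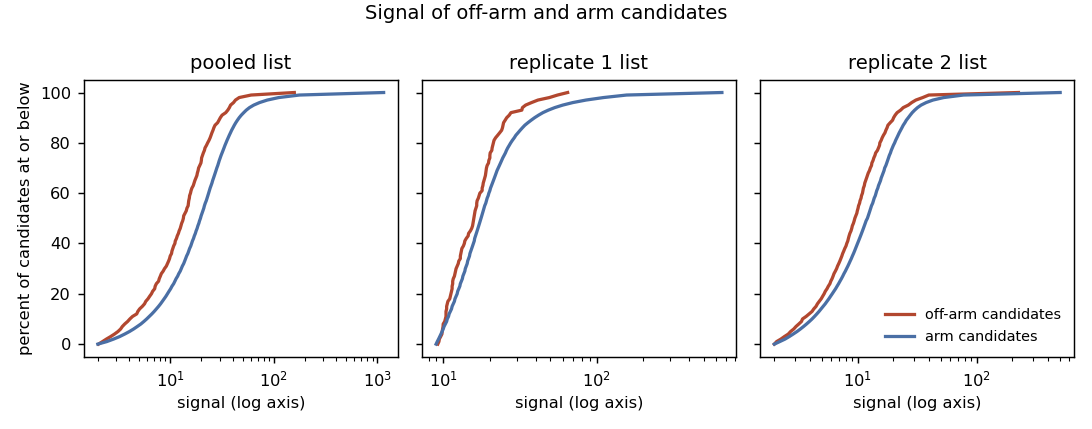
Percent of candidates at or below each signal, on a log axis, in the pooled, replicate 1 and replicate 2 ranked lists, for off-arm candidates and for arm candidates. The off-arm medians lie left of the arm medians, with values of 13.4 against 19.6 in the pooled list, 15.8 against 17.6 in replicate 1 and 9.49 against 12.1 in replicate 2.

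Only 4 members had a pooled signal over 100, and the replicates gave them different weight. The highest, Un_CP007100v1:6002-6517, had 158 in the pooled list, 225 in replicate 2 and 15.7 in replicate 1, so replicate 2 alone gave it a high value. This is the member that holds the array of GCAAG and GCAAT units, on a scaffold of 10091 bp. The third, Un_DS484068v1:2348-2863, had 121, with 73.4 in replicate 2 and 51.3 in replicate 1, and was matched by no annotated family. An overlapping member of the same scaffold, at 2557-3013, had 62.7 and was a tandem array of a unit of 117 bases.

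The rest of the 10 strongest were closer to each other. The member X_DS485126v1_random:7-522, wholly covered by the F element, a non-LTR retrotransposon, had 78.8, with 42.6 in replicate 1 and 36.6 in replicate 2. Y_DS485927v1_random:171-686 had 69.7, with 24.8 and 50.8, and was 51.9% HeT-A. Both elements named so far in this group are non-LTR elements, while gypsy12 is an LTR retrotransposon. Y_DS485048v1_random:600-1115, in gypsy12, had 65.7, with 20.1 and 44.9. X_DS484057v1_random:416-931, of which 48.3% was 28S gene sequence, had 63.6, with 32.5 in replicate 1 and no overlapping candidate in replicate 2. X_DS485266v1_random:712-1186, in R1A1 and ending at the scaffold's end, had 58.4, with 23.9 and 36.8. Replicate 1 gave the higher value in 3 of the 10, counting the one that replicate 2 lacked.

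**Figure D5:**
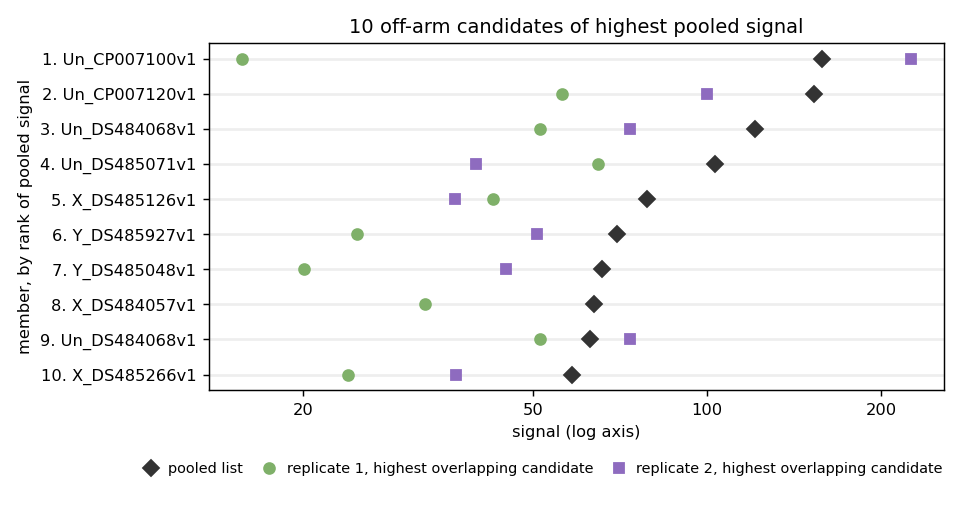
Signal, on a log axis, of the 10 off-arm candidates of highest pooled signal, in the pooled list and as the highest overlapping candidate of each replicate. The first has 158 pooled, 15.7 in replicate 1 and 225 in replicate 2, and the eighth has no candidate of replicate 2.

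Sequences with 10 or more members were 9 in number and held 176 members. After Y came Un_DS483562v1 with 32 members over 50625 bp, the strongest at 4535-5050 with a signal of 31.7 and 21 in replicate 2, and none in replicate 1 there. X_CP007103v1_random had 18 over 33320 bp, led by an R1A1 member at 17060-17575 with 34.6, 13.8 in replicate 1 and 17.9 in replicate 2. Un_CP007085v1 had 13, led by a GATE member at 27367-27882 with 30.8, 19.5 in replicate 1 and 11.8 in replicate 2. Y_CP007111v1_random had 12, the strongest at 13296-13811 with 52.1, 32.5 in replicate 1 and 24.1 in replicate 2.

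Of all members, 1 was kept in the authors' thresholded list. It was X_DS485126v1_random:7-522, the F element member, so 0.117% of members were kept (interval 0.0207 to 0.662), against 3.99% of arm candidates, 5.35% of those on chromosome 4 and 3.96% of the whole ranked list. The replicate lists kept 0 of 113 off-arm candidates in replicate 1 (6.12% of all rows kept) and 0 of 932 in replicate 2 (2.16% of all rows kept). Every row of the thresholded list had a score of 830 or more, a level reached by 4.09% of the ranked list. Among the members 6 reached it and 1 was kept (16.7%), and among arm candidates 4363 reached it and 4221 were kept (96.7%). All 17 chromosome 4 candidates that reached it were kept.

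The 5 members that reached the score and were not kept were among the strongest of all. They were the members of Un_CP007100v1, Un_CP007120v1, Un_DS484068v1 and Un_DS485071v1 with a score of 1000 each and that of Y_DS485927v1_random with a score of 850, with signals of 158, 153, 121, 103 and 69.7. Replicate 1 had 3 off-arm candidates at this score and replicate 2 had 6, none of which was kept. Per the deposited file notes, the thresholded lists were derived with 1 input that the ranked lists did not have, and what it holds was not given. In the list made from the pair of replicates, which keeps 3.91% of its rows, the same F element member was the 1 kept of 450 off-arm candidates.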

How the data were processed

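Peak lists in the narrowPeak layout were deposited by the authors for 2 replicates of 1 group, per the labels on dm6. The ranked lists hold all candidates and the thresholded lists those kept by the authors after an IDR step, a measure of how well ranks repeat. Used were the pooled lists, made from both replicates, each replicate's own lists, and lists made from the replicate pair. The signal is the authors' deposited enrichment value, whose scale the sources used here do not state. The score and the −log10 q value are the authors' deposited values as well, and their IDR values were not used. The sources used here name no aligner, peak caller or filter settings. Read counts are not in the lists, so the depth is unknown.

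Members and lists were chosen with earlier results of these data known. Scaffold names of the lists were matched to the reference by number series, assigned chromosome and length: 432 of 432 names of 1 series matched under the best constant offset, against 165 under the next, and 4 names of the other series were not settled. Gene and element annotation was that of Ensembl for the same assembly. Families were assigned with blastn 2.17.0 against 3317 annotated elements of 300 bp or more, ribosomal genes and Stellate genes, with nested elements masked in the longer one. Named are the 10 members of highest signal, the kept one, the strongest on each sequence with 10 or more members, the Y genes listed and the genes that hold or lie nearest to these. The other members and genes named were chosen after their values were seen: those with printed sequence, those on the ribosomal scaffold, klhl10, CR46178 and lncRNA:CR40719. Printed stretches are the longest near the summit without a 20-base word in common with 1 arm, from which no sequence is shown. The 95% Wilson intervals cover only counting error. No test was made, since there is 1 group and regions are not replicates. Other lists, overlap rules, merged sites, windows and promoter widths were tried, and the scripts' counting was checked on simulated data.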

Additional observations from a re-analysis of the deposited data

How the results depend on the processing

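Of the 70 alternatives, 41 moved a result past its interval or spread, or a count by over 1.5 times. A reversal was defined only for the ratio of median signals, which stayed below 1 in each of its alternatives. Counts and shares could only be labelled as the same or moved. The number of members, 852, was 450 in the replicate-pair list, 450 as merged sites, 244 at or above the median signal of all rows, and 113 to 932 when 1 replicate was left out. With replicate 2 limited to the lowest signal of replicate 1 it was 503. The ratio of median signals, 0.683, was 0.766 in the replicate-pair list and 0.786 to 0.901 with 1 replicate left out. The percent kept was 0 in either replicate's own lists. Members that overlapped a candidate of replicate 1 were 14.0% with 50% overlap and 14.0% by summit, and those of replicate 2 were 60.7% and 60.4%. CAGGTG was found in 1.33% of windows of 50 bp and 8.67% of those of 250 bp on each side. Starts within 1000 bp were near 5 members. Dodeca units were present in 23.7% of the replicate-pair list and in 18.6% to 21.5% with 1 replicate left out. R1 or R2 led 24.4% and 19.2% to 28%. R1 and R2 thus exceeded dodeca in each of these 3 lists and not in the pooled one, with overlapping intervals in every list. The alternatives for dodeca, for R1 and R2 and for the lowest signal were chosen after seeing the data. The causes were not tested. No paired analysis was possible because there is only 1 group. Depth is unknown, and 2 replicates limit the precision.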
